A study of Mus musculus with 4 samples.

Results

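The genes described here are the STING gene and 9 other genes of innate nucleic acid sensing, chosen by symbol for what they encode and not by their counts: Tmem173 (STING), Mb21d1 (cGAS), Tbk1, Trex1, Samhd1, Ddx58 (RIG-I), Ifih1 (MDA5), Mavs, Tlr3 and Enpp1. Earlier results of these data were known when they were chosen. Of these 10 genes, 9 had counts among the 27293 genes of the table, and Trex1 was not analysed here. RNA was taken from telencephalic tissue of C57BL/6 mouse embryos at embryonic day 13 (E13) and sequenced in 4 libraries, 2 with the genotype label WT (WT 1 and WT 2) and 2 with the genotype label STINGf/f;Nestin-Cre (cKO 1 and cKO 2). The study asked what the loss of STING from neural progenitors does to the developing cortex, and the comparison of the libraries labelled cKO with those labelled WT addresses that question at the level of RNA. In the cKO, both alleles of the STING gene carry loxP sites and Cre recombinase is driven by the Nestin promoter, which is active in neural progenitors. Cells outside the neural lineage, such as microglia, endothelium and mesenchyme, do not descend from those progenitors and share the dissected tissue. The exons between the loxP sites were not given in the sources used here. The title of WT 2 carries the abbreviation nes in place of wt, and whether that embryo carried Cre was not given.

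Cells detect misplaced or foreign nucleic acids by a small set of receptors. The enzyme cGAS binds double-stranded DNA in the cytosol and makes the second messenger cGAMP, which binds STING on the endoplasmic reticulum, and STING then recruits the kinase TBK1, which phosphorylates the transcription factor IRF3. RIG-I and MDA5 detect RNA in the cytosol and act through MAVS on mitochondria, TLR3 detects double-stranded RNA in endosomes, and TREX1, SAMHD1 and ENPP1 limit the pathway by degrading DNA, dNTPs and extracellular cGAMP.

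The promoters of Ddx58 and Ifih1 are shown because these held the motif GAAANNGAAA among the 8 sensing genes whose promoters were examined. This motif is the core of the element bound by interferon-activated factors. RefSeq sequences (build GRCm38.p6), from 250 bases before to 50 bases after the transcription start, were examined for 8 of the 9 genes with counts. cGAS was found under the symbol Cgas, and the promoter of Tmem173 was not examined here. The motif was searched on both strands (TTTCNNTTTC on the reverse strand), and 2 of the 8 promoters held it. It was found in 1131 of 32851 promoters of the same length in the RefSeq set (3.44%). Capitals mark the match, and both sequences run 5′ to 3′ on the minus strand, the strand of the gene.

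Ddx58, chr4:40239776-40240075:
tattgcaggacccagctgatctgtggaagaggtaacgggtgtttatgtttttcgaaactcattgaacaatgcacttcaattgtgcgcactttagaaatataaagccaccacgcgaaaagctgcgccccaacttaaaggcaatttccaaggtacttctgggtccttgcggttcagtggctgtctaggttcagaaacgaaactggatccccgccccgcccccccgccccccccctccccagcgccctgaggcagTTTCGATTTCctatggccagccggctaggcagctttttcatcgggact

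Ifih1, chr2:62646206-62646505:
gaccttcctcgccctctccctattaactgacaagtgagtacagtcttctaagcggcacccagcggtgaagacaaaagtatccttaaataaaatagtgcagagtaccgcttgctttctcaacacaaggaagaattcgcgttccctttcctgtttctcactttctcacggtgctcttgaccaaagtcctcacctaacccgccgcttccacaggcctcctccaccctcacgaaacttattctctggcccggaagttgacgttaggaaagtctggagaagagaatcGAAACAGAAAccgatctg

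In Ddx58 the first base of the match lay at position 3 counted from the start as 1, and the match was read on the reverse strand. In Ifih1 it began at position 33 and was read on the forward strand. Among interferon stimulated genes with a promoter in the same set, 12 of 17 held the motif. Counted by gene symbol in the same way, 1079 of all 27025 symbols held it (3.99%). A match is a stretch of letters in this window and was not measured as a binding site.

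The total count on genes was between 17209654 and 18533391 per library, and levels are given in CPM, the count scaled to a common library total. A gene with a count of 0 could be at up to 3 counts, which is 0.162 to 0.174 CPM here. Counts in the 4 libraries are listed below in the order WT 1, WT 2, cKO 1, cKO 2. Markers of cortical progenitors and neurons were high in all 4 libraries, with summed levels of 2160 to 2352 CPM and 5331 to 6353 CPM. WT 1 stood apart, with choroid plexus markers summing to 28.1 CPM against 1.55 to 2.97 CPM elsewhere (6 of 8 markers had counts) and mesenchymal markers summing to 312 CPM against 45.1 to 83.8 CPM. WT 2 had no count on the 4 Y-linked genes examined, and the other libraries had 1848 to 3002. WT 1 and WT 2 are therefore not repeats of the same RNA. For the libraries labelled cKO the labels do not say whether they came from separate embryos, and p-values measure only the spread between these 4 libraries.

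None of the sensing genes passed the test for a difference between the libraries labelled cKO and those labelled WT. The levels fell into a higher set, made of the kinase Tbk1, Samhd1 and the adaptor Mavs, and a scarce set, made of the receptors, STING itself and Enpp1. Scaled for exon length, Tbk1 was highest at a mean of 10.6 CPM per kilobase, Samhd1 followed at 5.49 and Mavs at 3.45, with no overlap between these 3 genes over the 4 libraries. Tmem173 came next at 0.4 CPM per kilobase, which was 8.62-fold below Mavs and 26.5-fold below Tbk1. Tmem173 (range 0.36 to 0.444 CPM per kilobase) and Ddx58 (0.329 to 0.396) overlapped and could not be ordered. Mb21d1 lay below both at 0.262 CPM per kilobase and overlapped Tlr3 at 0.192. The range of Tlr3 overlapped that of Ifih1 (0.122), and the range of Ifih1 overlapped that of Enpp1 (0.087), the lowest gene. The median of the 16120 tested genes with an exon length was 5.02 CPM per kilobase, and 7 of the 9 sensing genes lay below it. The percentile of Tmem173 among those genes was 9.49, that of Mb21d1 5.48 and that of Enpp1 0.44, while Tbk1 was at 68.0.

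**Figure D1:**
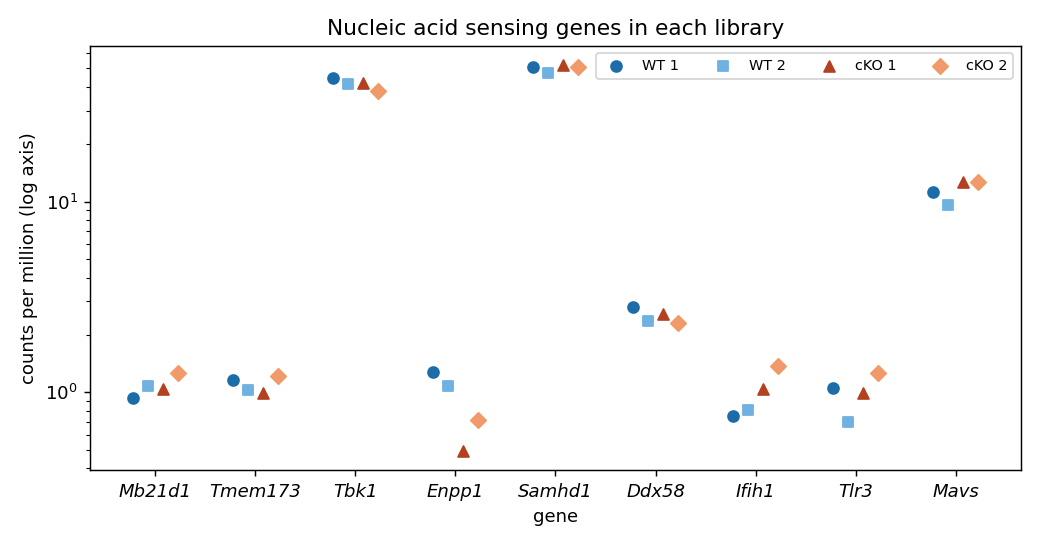
Level of each of the 9 sensing genes in each library, in CPM on a log axis, not scaled for gene length. Blue symbols are the 2 libraries labelled WT and red or orange symbols the 2 labelled cKO. Tbk1 and Samhd1 lie between 37.9 and 51.9 CPM, and the receptors, Tmem173 and Enpp1 lie below 3 CPM.

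**Figure D2:**
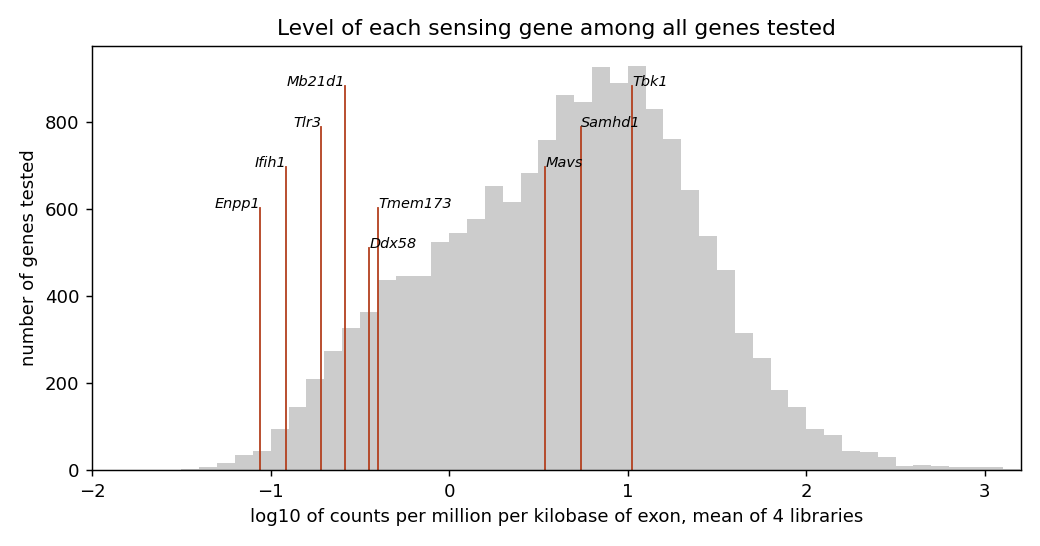
Distribution of the mean level of all tested genes, in log10 of CPM per kilobase of exon, with a red line for each of the 9 sensing genes. Tbk1 and Samhd1 lie above the median of 5.02 CPM per kilobase, and 7 genes lie below it.

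The histogram of levels places the scarce set in the low tail of the tested genes, and the plot of CPM by library shows that this held in every library. For 6 of the 9 genes, every library had fewer than 60 counts, so counting error was large for them.

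The comparison was fitted across 16145 genes with edgeR's quasi-likelihood test, with a 95% interval of each fold change from its standard error, and a gene was called at a fold change of at least 2 with an unadjusted p of at most 0.05. By this rule 0.811% of all tested genes were called, 0.669% as lower in cKO (108 genes) and 0.142% as higher (23 genes). Without WT 1 the excess of lower calls was gone, with 47 lower and 57 higher. With Benjamini-Hochberg adjustment 0% had an adjusted p under 0.05 in the fit to all 4 libraries, and 199 genes (1.23%) had an unadjusted p under 0.05. All 9 sensing genes with counts were tested and 0 were called. None had an unadjusted p under 0.05 in edgeR or in DESeq2, and every adjusted p in this edgeR fit, for these and for all genes named below, was 0.9999. The median log2 fold change of the sensing genes, cKO over WT, was 0.07, beside -0.0094 over all genes tested. In CPM, 1 gene had both libraries labelled cKO below both labelled WT (11.1% of 9, beside 11.2% of all tested genes), and 2 had them above (22.2%, beside 10.4%).

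**Figure D3:**
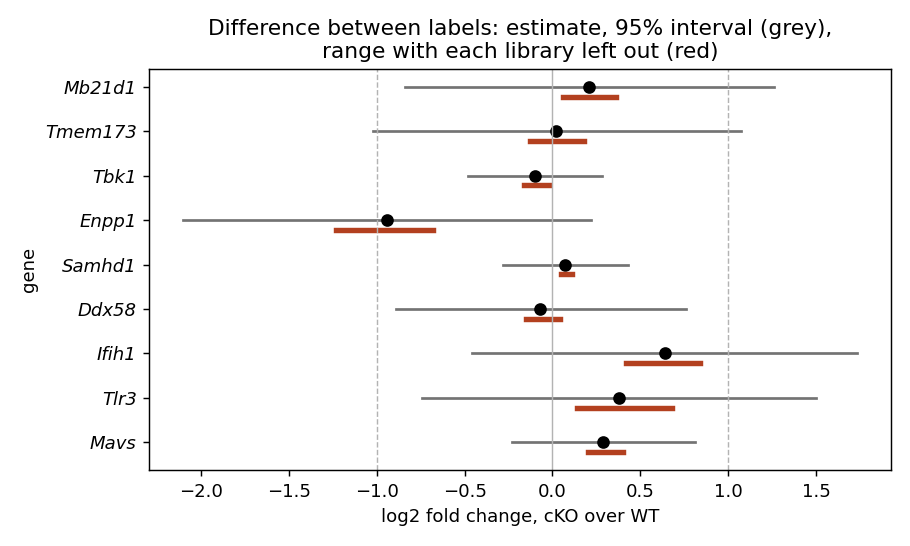
Log2 fold change of each of the 9 sensing genes, cKO over WT (black point), with its 95% interval from edgeR (grey line) and, in red, the range of estimates with each library left out in turn. All intervals include 0, and dashed lines mark a 2-fold difference. The intervals of Tbk1, Samhd1, Ddx58 and Mavs lie within them.

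The plot of fold changes shows that the precision followed the counts. The 95% intervals of 4 genes lay within a 2-fold difference in either direction, and those of the other 5 did not.

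The DNA sensing arm begins with cGAS. Mb21d1 (ENSMUSG00000032344, chr9:78430526-78443237, minus strand) was at 16, 20, 19 and 23 counts. The groups overlapped, and cKO 2 was the highest library. The level was 1.0 ± 0.106 CPM in WT and 1.16 ± 0.162 CPM in cKO (SD, n = 2), a log2 fold change of 0.21 (standard error 0.46, 95% interval -0.84 to 1.26). Of its exon bases, 4.87% are shared with a gene on the opposite strand, Gm8093, and without a statement on strand the reads there cannot be assigned. For STING, the receptor of cGAMP, the counts on Tmem173 (chr18:35733678-35740554, minus strand) were 20, 19, 18 and 22. Both groups lay within 0.987 to 1.22 CPM, and the library with the highest level carried the label cKO. Summed over libraries, the counts gave a ratio of 1.01 between the labels (exact Clopper-Pearson 95% interval 0.633 to 1.61, for counting error only), which does not include a 2-fold loss. The edgeR interval of the fold ran from 0.492 to 2.09, so losses larger than its lower end lie outside both intervals. The mean level of the gene that the label says is deleted, 1.1 CPM in the libraries labelled cKO and 1.09 CPM in those labelled WT, thus does not check the genotype, which is taken from the labels throughout. By western blot, in cortex of a later embryonic stage and not in these libraries, the study reports a difference in STING protein between the genotypes. The count of Tmem173 pools every exon, floxed or not, and every cell of the dissected tissue. In bulk tissue, fewer cells of a type and less RNA per cell cannot be told apart.

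Tbk1 (ENSMUSG00000020115, chr10:121546455-121586787, minus strand), the kinase recruited by STING and by MAVS, was the most abundant of the sensing genes per kilobase of exon. Its counts were 769, 768, 768 and 685. In CPM these were 44.7, 41.4, 42.1 and 37.9, so cKO 2 was the lowest library and the groups overlapped. The log2 fold change was -0.10 (standard error 0.16), with a 95% interval of the fold from 0.719 to 1.22.

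Enpp1 (ENSMUSG00000037370, chr10:24637914-24712159, minus strand), which hydrolyses extracellular cGAMP, ranked first by p among the sensing genes and at 465 among all 16145. Its counts were 22, 20, 9 and 13. The groups did not overlap, with the libraries labelled cKO the lower. The level was 1.18 ± 0.141 CPM in WT and 0.606 ± 0.159 CPM in cKO (SD, n = 2). The fold was 0.521 with an interval from 0.234 to 1.16, so it did not pass the test. Summed over libraries, the counts gave a ratio of 0.515 between the labels (exact Clopper-Pearson 95% interval 0.293 to 0.883, for counting error only). No molecular identifiers are described, so reads are not independent molecules. With 9 counts in cKO 1, Enpp1 would not be tested if every library had to reach 10.

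Cell type markers also differed between these libraries. Endothelial markers summed to 250 and 188 CPM in WT 1 and WT 2, and to 165 CPM in both libraries labelled cKO. All 10 had a negative log2 fold change, with a median of -0.49. In the edgeR test 2 of the 10 had an unadjusted p under 0.05, beside 1.23% of all tested genes, and 0 were called. Cdh5, the adhesion molecule of endothelial junctions, was at 672, 465, 403 and 394 counts. Summed microglial markers were at 54.9 and 37.8 CPM in WT and 34.7 and 42.3 in cKO, and 10 of 11 tested had a negative log2 fold change, with a median of -0.18. Of the mesenchymal markers, 7 were tested, all with a negative log2 fold change and a median of -1.54, and Col1a1 and Col1a2 were called. Without WT 1 their median was 0.21, with 2 of the 7 negative and 0 called. Of the choroid plexus markers, Aqp1 and Htr2c were tested and both were called, with a median of -3.05. Htr2c, at 101, 18, 4 and 7 counts, reached 10 counts only in the libraries labelled WT. It thus passed the filter through that group alone. Without WT 1 the choroid plexus median was -1.16. Without WT 1 the endothelial median was -0.16, with 10 of 10 negative, and the microglial median was 0.06. The part of these markers in the values of Enpp1 was not tested.

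**Figure D4:**
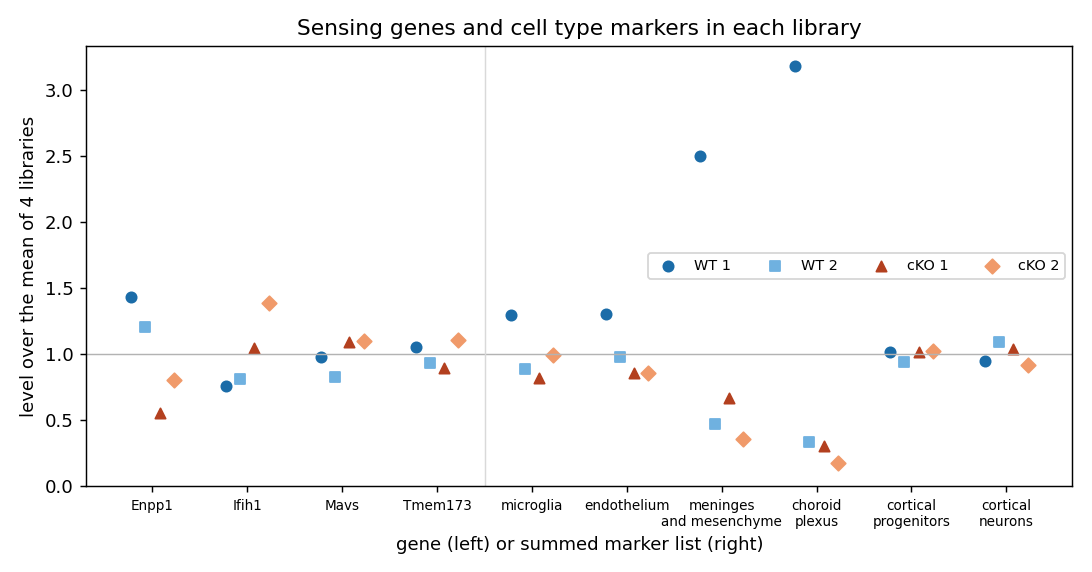
Level in each library divided by the mean of the 4 libraries, for Enpp1, Ifih1, Mavs and Tmem173 (left) and for summed marker lists of cell types (right). Blue symbols are WT 1 and WT 2, red or orange symbols cKO 1 and cKO 2. The endothelial sum is highest in WT 1, at 250 CPM, and 165 CPM in both cKO libraries. The mesenchymal and choroid plexus sums are high in WT 1 alone.

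The plot of markers by library shows Enpp1 and the endothelial sum lower in both cKO libraries than in both WT libraries. The choroid plexus sum was also lower in both, at 28.1, 2.97, 2.69 and 1.55 CPM. The mesenchymal and choroid plexus sums set WT 1 apart from all others. Enpp1 without WT 1 or any other library kept a log2 fold change between -1.23 and -0.68.

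Samhd1 (ENSMUSG00000027639, chr2:157097533-157135265, minus strand) hydrolyses dNTPs and so limits the DNA substrate of the sensors. Its counts were 875, 878, 947 and 918, or 50.8, 47.4, 51.9 and 50.7 CPM. After scaling the groups overlapped, since WT 1 lay above cKO 2. The log2 fold change was 0.07 (standard error 0.16), and the interval of the fold ran from 0.821 to 1.35. TREX1 is a 3′ exonuclease that degrades cytosolic DNA. In GENCODE M21 its gene lies at chr9:109057933-109059734 on the minus strand, wholly inside the span of Atrip (chr9:109057933-109074124) on the same strand, and it has no value here.

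The RNA sensing arm was scarce in its receptors and moderate in its adaptor. RIG-I, encoded by Ddx58 (ENSMUSG00000040296, chr4:40203773-40239828, minus strand), was at 48, 44, 47 and 42 counts. The groups overlapped, with a log2 fold change of -0.07 (standard error 0.36, 95% interval -0.89 to 0.76). MDA5, encoded by Ifih1 (ENSMUSG00000026896, chr2:62595798-62646255, minus strand), was at 13, 15, 19 and 25 counts. The groups did not overlap, with the libraries labelled cKO the higher, at 1.21 ± 0.24 CPM against 0.782 ± 0.0382 CPM (SD, n = 2). The fold was 1.55 with an interval from 0.729 to 3.31, so the difference did not pass the test. Both genes held the motif shown above in their promoter, and their log2 fold changes were -0.07 and 0.64.

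TLR3, the endosomal receptor of double-stranded RNA, was measured by Tlr3 (ENSMUSG00000031639, chr8:45395665-45411080, minus strand) at 18, 13, 18 and 23 counts. The groups overlapped, and the log2 fold change was 0.38 (standard error 0.49), with an interval of the fold from 0.599 to 2.84. Of its exon bases, 7.32% are shared with Gm45542 on the opposite strand. Mavs (ENSMUSG00000037523, chr2:131234063-131248025, plus strand), the mitochondrial adaptor of RIG-I and MDA5, was at 194, 178, 230 and 230 counts. Here too the groups did not overlap, and the libraries labelled cKO were the higher, at 12.7 ± 0.0721 CPM against 10.4 ± 1.18 CPM. The fold was 1.22 with an interval from 0.854 to 1.75, and did not pass the test. Its counts gave a ratio of 1.22 (exact Clopper-Pearson 95% interval 1.06 to 1.4, for counting error only).

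For each gene, the squared deviations of the counts from those expected by library total were divided by the expected counts. Their sum over the degrees of freedom was 0.196 for Tmem173 and at most 3.38 over the sensing genes. The median of this index was 2.07 for the 3598 tested genes with a mean count of 10 to 60. It was 6.12 for the 5944 with a mean count of 150 to 1000. Of 92 pathway genes that reached 10 counts in all 4 libraries, those whose pattern over the 4 libraries came nearest to Tmem173 were Surf4 and Stim1, each with a root mean square difference of 0.04 in centred log2 CPM. The counts of Surf4 were 2259, 2302, 2160 and 2618, highest in cKO 2 as for Tmem173. Nearest to Mb21d1 were Tbkbp1 (0.03) and Rela (0.07), and Tbkbp1 had 1087, 1296, 1219 and 1478 counts. These are descriptions over 4 libraries. At 18 to 22 counts for Tmem173 and 16 to 23 for Mb21d1, the differences between libraries that were matched lie within counting error.

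The study also screened the DNA sensors Aim2 and Tlr9 beside STING, by protein in cultured neural progenitor cells treated with bFGF. The values here are RNA in E13 tissue, where these 2 genes differed from each other in level. Aim2 (chr1:173350879-173466040, plus strand), whose protein assembles an inflammasome on DNA, was at 382, 212, 373 and 249 counts. Its level was 4.85 CPM per kilobase, 12.1-fold that of Tmem173, and it split within both groups, by 1.94-fold between WT 1 and WT 2 in CPM and by 1.49-fold between cKO 1 and cKO 2. The log2 fold change was 0.04 (standard error 0.33). Tlr9, the endosomal receptor of unmethylated DNA, had 3, 0, 0 and 2 counts, at or under the limit that a count of 0 allows.

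Around the sensing genes, 124 genes of the pathway were listed by role, 118 had counts, 96 were tested and 0 were called, beside 0.811% of all tested genes. The libraries labelled cKO lay entirely below those labelled WT for 11 of the 96 (11.5%) and entirely above for 15 (15.6%), beside the 11.2% and 10.4% over all genes tested. The median log2 fold change was 0.01. Upstream, 10 of 13 other DNA sensors were tested, 3 with a negative and 7 with a positive log2 fold change. The helicase Dhx9 was the highest of these, at 8305, 9190, 9363 and 7512 counts, and the groups overlapped. Of 20 genes for STING trafficking, stability and cGAMP transport, 20 were tested, with a median of 0.04, and the most abundant, G3bp1, had a log2 fold change of 0.01 (standard error 0.15). In the RNA sensing arm, 16 of 17 partners of the RIG-I-like receptors were tested, 12 of them with a negative log2 fold change, with a median of -0.03.

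Of 10 listed genes of the endosomal arm 7 were tested, and the receptors Tlr7 (5, 8, 14 and 5 counts) and Tlr8 (7, 0, 0 and 0 counts) stayed below the filter, with all 7 counts of Tlr8 in WT 1. Among nucleases and RNA metabolism genes, 14 of 15 were tested, 11 with a positive log2 fold change and a median of 0.05. Adar, which edits double-stranded RNA, was at 1536, 1858, 1796 and 1717 counts, with overlapping groups.

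Downstream, the kinases and transcription factors had 13 of 13 genes tested and a median of 0.02. Ikbkb, the NF-κB pathway kinase, was at 1395, 1598, 1781 and 1609 counts. In CPM the libraries labelled cKO were the higher without overlap, with a log2 fold change of 0.17 (standard error 0.15). Rela, the NF-κB subunit p65, had a log2 fold change of 0.08 (standard error 0.17), with overlapping groups.

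**Figure D5:**
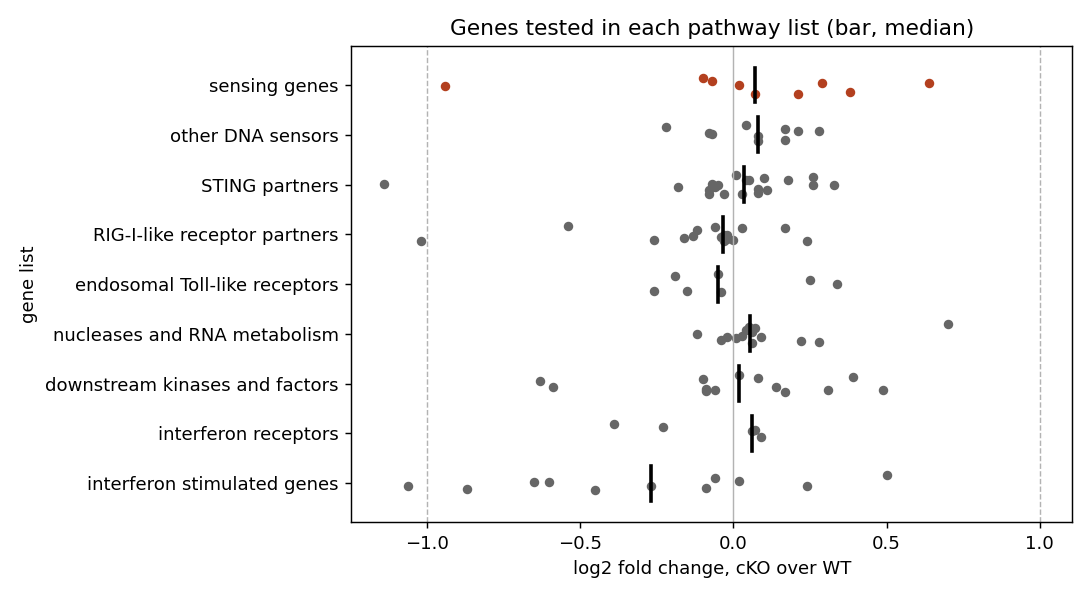
Log2 fold change, cKO over WT, of every tested gene in the sensing genes (red) and in each pathway list other than the RT-PCR genes (grey), with a black bar at the median and dashed lines at a 2-fold difference. The medians drawn lie between -0.05 and 0.08, apart from the interferon stimulated genes at -0.27.

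As the plot of pathway lists shows, the list of interferon stimulated genes had the lowest median log2 fold change, -0.27, over the 11 genes tested of 25 listed. Of the 23 with counts, 5 had 3 counts or fewer in every library. The median of all genes tested was -0.0094, and 0 genes of the list were called. The groups did not overlap for 6 of the 11, with 4 lower in cKO (Rtp4, Isg15, Ifi27 and Irf9) and 2 higher, beside 11.2% and 10.4% of all tested genes. The 4 lower genes are named because of their values. Of these, Ifi27 was at 15, 12, 5 and 8 counts. It reached 10 counts only in the libraries labelled WT, and so passed the filter through that group alone. The summed level of the list was 87.7, 82.4, 82.0 and 79.2 CPM. Stat2, a subunit of the interferon-activated transcription factor, had 629, 694, 651 and 701 counts, with a log2 fold change of 0.02 (standard error 0.17). The median of the list was -0.10 without WT 1, -0.37 without WT 2, -0.24 without cKO 1 and -0.04 without cKO 2. The endothelial, microglial and mesenchymal marker medians were also negative in all 4 libraries together, but without WT 1 those of microglia and mesenchyme were not, as given above, and their part in the values of this list was not tested.

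Among innate immune genes for which the study lists RT-PCR primers, Ifit2 was at 154, 147, 166 and 127 counts, with overlapping groups and a log2 fold change of -0.06 (standard error 0.26). Il6 had 1 count in WT 2 and 0 elsewhere, and Ccl2 had 1, 0, 2 and 0 counts, so differences in these cytokines were not detectable at this depth. Ifnb1, Tnf, Il1b and Il12b were not analysed here. Of 6 interferon receptor genes 5 were tested, with a median log2 fold change of 0.06, and 0 were called. Ifnar1, a chain of the type I interferon receptor, had 1628, 1852, 1968 and 1726 counts with a log2 fold change of 0.07 (standard error 0.15), and the other chain, Ifnar2, had 281, 291, 299 and 317. In CPM the groups did not overlap for Ifnar2, and the libraries labelled cKO were the higher, with a log2 fold change of 0.09 (standard error 0.20).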

How the data were processed

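Telencephalic tissue of E13 embryos was measured by RNA-seq in 2 libraries labelled WT and 2 labelled cKO. The authors deposited raw counts of reads per gene. The submitters' processing notes name Bowtie2 2.2.3, TopHat2 2.0.12, HTSeq 0.6.0 and mm9, but 97.3% of the 27232 genes found in GENCODE M21 have positions within 1 base of it, so positions were read as GRCm38. Strand was not given in the sources used here, so reads of genes on opposite strands cannot be separated. The table has 27304 rows, of which 11 without a gene (0.0403%) were left out. The deposited normalized values, fold changes and p-values were not used.

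All genes passing filterByExpr (16145) were fitted in R 4.3.3 by the quasi-likelihood test of edgeR 4.0.16 (TMM factors, Benjamini-Hochberg adjustment), without covariates. Genes were called where the unadjusted p was at most 0.05 and the fold change reached 2. CPM are counts over the total count per library, of 17209654 to 18533391, and levels between genes were compared per kilobase of GENCODE M21 exon. Count ratios have exact Clopper-Pearson 95% intervals, and intervals of fold changes use 7.97 degrees of freedom. The scripts were tested on simulated counts. Alternatives were RLE and upper-quartile normalization, other filters, DESeq2 1.42.0, the replicate number as a block, an adjusted p threshold and each library left out.

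The members and lists were chosen with earlier results of these data known. Named genes are all members, the screened sensors, the RT-PCR genes and, from each pathway list, called genes and the 2 with the highest mean CPM, with lists of at most 8 genes given in full if needed. For Tmem173 and Mb21d1 the nearest 2 pathway genes are named, and at most 2 markers per cell type. Rtp4, Isg15, Ifi27, Enpp3, Smpdl3a, Rnf26, Rnf135, Bst2, Tlr7 and Tlr8 were named after their values were seen. Some genes of the lists are not reported here by name.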

Additional observations from a re-analysis of the deposited data

How the results depend on the processing

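The count of called genes over the whole table, 131, was 405 when any gene with a count entered, 72 when every library had to reach 10 counts, 65 with DESeq2, 208 with the replicate block and 0 at an adjusted p under 0.05. With each library left out it ran from 104 to 531. It was 476 without WT 2 and 531 without cKO 1, and without WT 1 it split into 47 lower and 57 higher. Genes with an adjusted p under 0.05 numbered 65 with no filter, 5 with the block, 7 without WT 1, 116 without WT 2 and 105 without cKO 1. These included 1 pathway gene, Dhx36, without cKO 1 (log2 fold change -0.77, edgeR adjusted p = 0.045), whose count was low in cKO 2. The sensing genes had 0 calls under every alternative run, and the smallest p of any of them was 0.095. The pathway lists had 0 calls, but 1 with no filter and 1 with that stricter filter (Rnf135, at 49, 27, 18 and 20 counts in the order used above). With each library left out the count ran from 0 to 2, reaching 2 without WT 2 (Rnf135 and Bst2, log2 fold changes of -1.40 and -1.28).

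Of 89 alternative log2 fold changes of the sensing genes, 85 kept their direction. Those that left no library out moved by at most 0.01. With each library left out, Tmem173 ran from -0.13 to 0.18, turning negative without WT 2 (-0.04) and without cKO 2 (-0.13), and Ddx58 from -0.15 to 0.04, turning positive without WT 1 (0.04) and without cKO 2 (0.01). These fits leave 1 library in a group, whose spread was assumed to be that of the other group. Enpp1 had no value under the stricter filter. The labels tie the replicate numbers to no litter or batch. With only 2 pairs, libraries of the same number had deviations from their group means that correlated at 0.107 over 16145 genes. The replicate block changed no call of a sensing or pathway gene. The cause of the shifts was not tested. For 6 sensing genes under 60 counts in every library, depth limits what can be detected.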

Other observations

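Enpp3, a relative of Enpp1 that also hydrolyses cGAMP, was at 18, 21, 34 and 30 counts (order of libraries as above). The libraries labelled cKO were the higher without overlap, where those of Enpp1 were the lower. The log2 fold change of Enpp3 was 0.70 (standard error 0.42) and ran from 0.62 to 0.78 with each library left out. Smpdl3a, another enzyme that degrades cGAMP, was at 188, 175, 190 and 184 counts, with overlapping groups and a log2 fold change of 0.03 (standard error 0.23). Neither Enpp1 nor Enpp3 passed the test, the difference between them was not tested, and Enpp3 and Smpdl3a were named after their values were seen.

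Of the other low-count genes of the pathway, these are named after their values were seen, and none passed the test. Rnf26, a ubiquitin ligase of STING, was at 22, 13, 6 and 10 counts, with a log2 fold change of -1.14 (standard error 0.60). Rtp4, an interferon stimulated gene, was at 36, 31, 17 and 20 counts, with a log2 fold change of -0.87 (standard error 0.43). Isg15, a ubiquitin-like modifier, was at 29, 27, 11 and 25 counts, where cKO 1 was the low library and cKO 2 lay near WT.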
